A study of Homo sapiens with 6 samples.

Results

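Integrins are the cell surface receptors through which epithelial cells hold on to laminin, collagen and fibronectin. Each receptor is a pair of 1 alpha and 1 beta subunit, and the alpha subunit largely sets which ligand is bound. The cytoplasmic tail of most, but not all, beta subunits binds talin and kindlin, which switch the receptor on and tie it to the actin cytoskeleton. In colon epithelium, β1 receptors for collagen, laminin and fibronectin coexist with α6β4, which anchors cells to the basement membrane through keratin filaments, and αV receptors can release TGF-β from its latent complex. The genes described here are 10 integrin subunits, ITGA2, ITGA3, ITGA5, ITGA6 and ITGAV for the alpha and ITGB1, ITGB4, ITGB5, ITGB6 and ITGB8 for the beta subunits. They were chosen by gene symbol, as all rows of the deposited table that GENCODE v29 assigns to these names; this rule reads no value, although the names themselves were picked with earlier results of these data known. The 10 genes were found among 18750 genes with counts, and they held 97 of the 98886 transcript rows.

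Cells labelled HCT116, an established human colorectal carcinoma line, received, by transfection, either si-AC010789.1, a short interfering RNA directed at the long non-coding RNA of that name, or siRNA-NC, the negative control. Both groups thus had a transfected siRNA and the same serum-containing medium, and they differed in the siRNA sequence, of which 1 was used against the target. Total RNA from 3 replicates of each group was sequenced as paired-end libraries, and the question was which genes respond to loss of AC010789.1. The libraries with si-AC010789.1 are called knockdown libraries here and those with siRNA-NC controls. The study reports that it verified the knockdown, but the level of AC010789.1 was not analysed here. The study calls the replicates biological repeats and allows that they came from different passages of the line; p-values measure the spread between these libraries. In RNA from whole cultures, a change in the number of cells of a type and a change in RNA per cell cannot be told apart.

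Library totals lay between 11277222 and 13443866 counts. CPM here are counts per 1000000 of a library's normalised total. Of 7 epithelial markers, KRT8 (444 to 850 CPM) and KRT18 (351 to 535 CPM) were abundant and EPCAM lay between 3.10 and 5.59 CPM. CLDN4 was 22.5 to 28.9 CPM in 4 libraries but 0.320 and 1.78 CPM in si-AC010789.1 replicates 2 and 3. CDH1, which encodes E-cadherin, was at most 1.05 CPM, CLDN3 at most 0.349 CPM, and KRT19 had no row in the table. The labelled epithelial line thus showed keratins 8 and 18, while CDH1 and CLDN3, which define epithelial junctions, were at 1.05 CPM or lower. Whether the cells are HCT116 was not tested beyond these markers. Of 9 markers of blood, endothelial and fibroblast cells, 5 were in the table; COL1A1 lay between 37.8 and 48.0 CPM and PDGFRB between 16.4 and 19.0 CPM, and the summed level of the list was 61.6 to 69.9 CPM in the controls and 63.4 to 68.7 CPM after knockdown. The part of these features in the integrin values was not tested.

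Several subunits had alternative transcripts that differ by coding exons, and the counts of these transcripts varied within a group by more than the gene sums did. The 30 bases across the splice junction that distinguishes the forms are shown for 4 members, because the forms part at these junctions. Lower case is the last 15 bases of the shared upstream exon and capitals are the first 15 bases of the exon that follows; all lie in coding sequence on the plus strand, and they were read from GENCODE v29 transcripts (GRCh38).
ITGA6-201, into the α6A exon: tttatactatggaagTGTGGTTTCTTCAAG
ITGA6-202, past it to the α6B exon: tttatactatggaagTGTGGATTCTTTAAA
ITGA3-202, into the α3A exon: ctcctgctgtggaagTGCGGCTTCTTCAAG
ITGA3-201, past it to the α3B exon: ctcctgctgtggaagTGTGACTTCTTTAAG
ITGAV-201, into the exon absent from ITGAV-202: ctccatgtagatcacAAGATATTGATGCTG
ITGAV-202, past it: ctccatgtagatcacGTCAGCTTATTTCGG
ITGB4-201, into the exon absent from ITGB4-206: tctccgatgacactgGCTGCGGCTGGAAGT
ITGB4-206, past it: tctccgatgacactgAGCACCTGGTGAATG
In ITGA6 the alternative exon spans chr2:172501772-172501901 (130 bases) and carries its own stop codon at 172501877, while transcripts without it stop at 172504250; the cytoplasmic tails of α6A and α6B differ accordingly. ITGA3 has the same arrangement, with an exon of 142 bases at chr17:50088225-50088366, a stop codon at 50088333 within it and another at 50089263 downstream. ITGAV-202 lacks 2 coding exons of ITGAV-201, of 62 bases at chr2:186630797-186630858 and 46 bases at chr2:186633329-186633374, and ends at the same stop codon at 186677290. ITGB4-201 has a coding exon of 210 bases at chr17:75753765-75753974 that ITGB4-206 lacks, in the part of the gene that encodes the long cytoplasmic tail, and both end at 75757553.

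None of the 9 members that passed the filter on low counts was called by edgeR's quasi-likelihood test at an adjusted p under 0.05, where 0.982% of the 13750 tested genes were called. At an unadjusted p under 0.05 there were 2 members, ITGAV and ITGB1, against a background of 17.2% of genes, and 0 members met the study's criteria, an unadjusted p under 0.05 with an absolute log2 fold change over 1, met by 0.778% of genes. DESeq2, the other tool run, called 1 member, ITGAV, where it called 5.06% of the genes it gave an adjusted p. The libraries of the groups did not overlap in 2 of 9 members, both lower in si-AC010789.1, where 25.1% of genes did not overlap, 12.9% in that direction. The median log2 fold change of the 9 members was -0.06, with 7 below and 2 above 0, and the median over all tested genes was -0.0007. The differences were small throughout: every fitted value lay between -0.19 and 0.29 on the log2 scale.

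**Figure D1:**
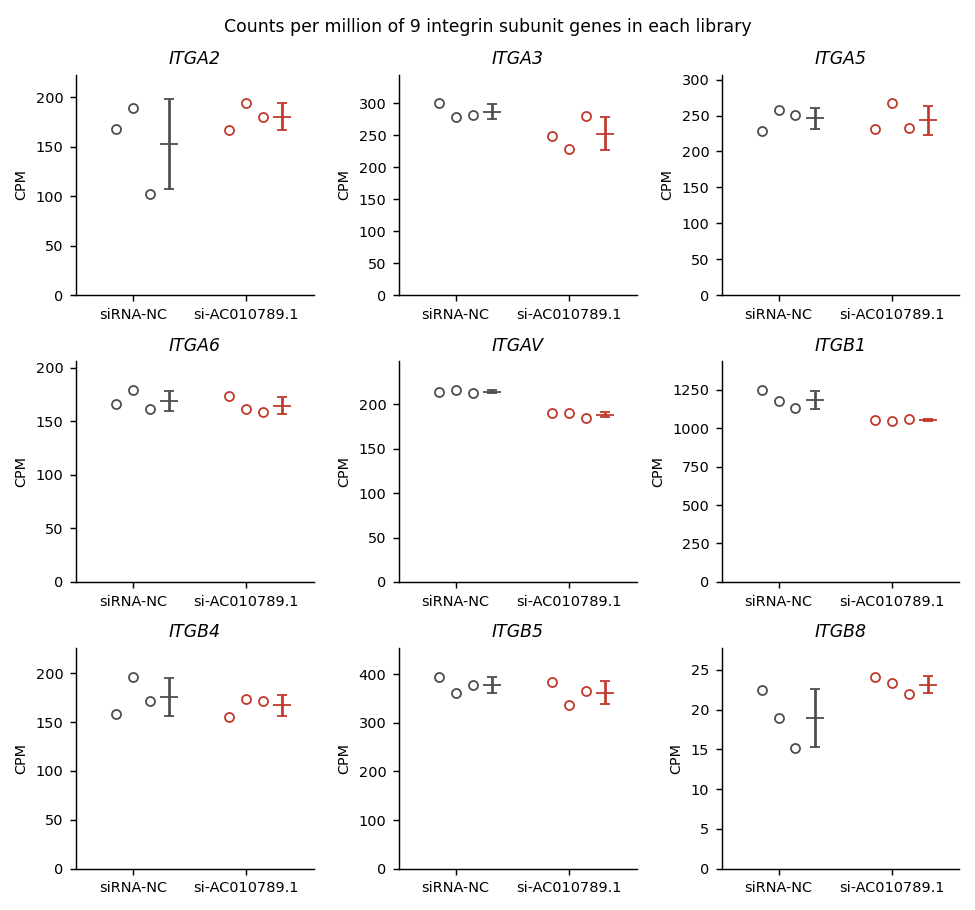
CPM (counts per 1000000 of a library's normalised total, from 0) of the 9 tested integrin subunit genes. Circles are libraries, 3 per group, and the bar beside them is the mean ± SD. In ITGAV and ITGB1 every si-AC010789.1 library lies below every siRNA-NC library, and in the other 7 genes the groups overlap.

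ITGAV encodes αV, which pairs with β1, β3, β5, β6 or β8 and binds vitronectin, fibronectin and the latent TGF-β complex. The gene lies at chr2:186590065-186680901 on the plus strand. It was at 214, 216 and 213 CPM in siRNA-NC replicates 1, 2 and 3 and at 190, 190 and 185 CPM in si-AC010789.1 replicates 1, 2 and 3. All 3 knockdown libraries were below all 3 controls, and neither group spanned more than 1.03-fold, the tightest pair of groups among the members. The mean was 214 ± 1.53 CPM against 188 ± 2.93 CPM (SD, n = 3 each), a difference of -12.1%. The log2 fold change was -0.19 with a standard error of 0.04, a 95% interval of 0.825-fold to 0.935-fold, an unadjusted p of 0.00202 and an adjusted p of 0.0866 (edgeR), and the exact permutation test gave its smallest possible p of 0.1. DESeq2 gave the same log2 fold change with an adjusted p of 0.045. The fitted value stayed between -0.19 and -0.17 in all 13 alternatives, and with single libraries left out the adjusted p ran from 0.184 to 0.231.

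ITGB1 encodes β1, the common partner of α2, α3, α5, α6 and αV. It lies at chr10:32900319-33005792 on the minus strand. The level was 1248, 1177 and 1130 CPM in the controls and 1052, 1045 and 1061 CPM in the knockdown libraries. As with ITGAV, the knockdown libraries were all below the controls. They lay closer together than the controls did, with means of 1185 ± 59.4 and 1053 ± 7.66 CPM (SD, n = 3 each), a difference of -11.2%. The log2 fold change of -0.17 (standard error 0.05) had a 95% interval of 0.822-fold to 0.960-fold, an unadjusted p of 0.00906 and an adjusted p of 0.148; the exact permutation p was 0.1. Its sign was negative in every alternative run, from -0.21 to -0.13, and 0 of the 13 alternatives called it.

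ITGA3 encodes α3, which forms the laminin receptor α3β1, and is at chr17:50055968-50090481 on the plus strand. The controls were at 300, 278 and 282 CPM and the knockdown libraries at 249, 229 and 280 CPM, so that the knockdown replicate 3 lay among the controls and the other 2 below them. The log2 fold change was -0.18 ± 0.08 (standard error), with a 95% interval from 0.773-fold to 1.01-fold and an adjusted p of 0.312. It was -0.05 with protein-coding transcripts alone and -0.11 without si-AC010789.1 replicate 2.

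ITGA6 encodes α6, which pairs with β1 or β4 to bind laminin, and is at chr2:172427354-172506282 on the plus strand. Its level was 166, 179 and 161 CPM in the controls and 174, 161 and 159 CPM after knockdown. The groups overlapped and the means, 169 ± 9.37 and 165 ± 8.19 CPM, differed by less than either SD. The interval of the difference, 0.882-fold to 1.08-fold, and the adjusted p of 0.822 leave room for a small change in either direction.

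ITGB4 encodes β4, the partner of α6 in hemidesmosomes, where its tail binds plectin; it is at chr17:75721328-75757818 on the plus strand. The controls had 158, 196 and 172 CPM and the knockdown libraries 155, 174 and 172 CPM. The lowest control and the lowest knockdown library were both replicate 1, and the groups overlapped. The fitted interval was 0.821-fold to 1.11-fold with an adjusted p of 0.744, and the log2 fold change of -0.07 turned to 0.15 with protein-coding transcripts alone. GALK1, on the opposite strand, overlaps this gene and had 1435 counts over the 6 libraries; whether the counting used strand is not given in the sources used here.

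ITGA5 encodes α5, whose pairing with β1 gives the main fibronectin receptor, and is at chr12:54395261-54419460 on the minus strand. It was at 229, 258 and 251 CPM in the controls and 231, 267 and 233 CPM after knockdown. The lowest and the highest of the 6 values were a control and a knockdown library, and the mean difference of -0.93% was smaller than the SD of either group and turned sign with upper-quartile scaling. The 95% interval was 0.873-fold to 1.12-fold (adjusted p = 0.949).

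ITGA2 encodes α2, which with β1 binds collagen, and is at chr5:52989326-53094779 on the plus strand. Control replicates 1 and 2 had 168 and 189 CPM and control replicate 3 had 102 CPM. The knockdown libraries had 167, 194 and 180 CPM, close to the first 2 controls. The control mean was 153 ± 45.5 CPM and the knockdown mean 180 ± 13.5 CPM (SD, n = 3 each). The log2 fold change of 0.24 (standard error 0.22) had the widest interval of the members, 0.823-fold to 1.69-fold, with an adjusted p of 0.630. Leaving out single libraries moved it between 0.01 (without siRNA-NC replicate 3) and 0.42.

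ITGB5 encodes β5, which with αV binds vitronectin, and is at chr3:124761948-124901418 on the minus strand. The values were 394, 362 and 377 CPM in the controls and 383, 337 and 365 CPM after knockdown. In each group replicate 1 was the highest and replicate 2 the lowest, and the ranges overlapped. The interval of 0.865-fold to 1.06-fold contained 1 (adjusted p = 0.659), and the sign of the log2 fold change, -0.06, turned with protein-coding transcripts alone.

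ITGB8 and ITGB6 encode the beta subunits of αVβ8 and αVβ6, both known for binding latent TGF-β. ITGB8, at chr7:20330702-20415754 on the plus strand, was at 22.5, 19.0 and 15.2 CPM in the controls and 24.1, 23.3 and 22.0 CPM after knockdown. Only control replicate 1 reached into the range of the knockdown libraries. The log2 fold change of 0.29 (standard error 0.15) had an interval of 0.957-fold to 1.57-fold, and the adjusted p was 0.374. It was 0.16 without siRNA-NC replicate 3 and 0.44 without siRNA-NC replicate 1. ITGB6, at chr2:160099666-160200313 on the minus strand, had 0, 2 and 3 counts in the controls and 0, 2 and 1 counts after knockdown, at or under the floor of 3 counts in every library (0.223 to 0.266 CPM), so that it was not tested and no fold is given.

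**Figure D2:**
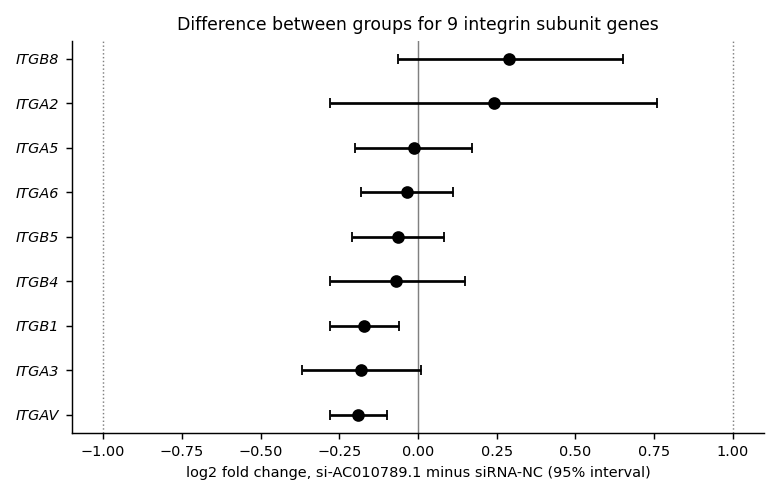
Fitted log2 fold change (si-AC010789.1 minus siRNA-NC) of the 9 tested integrin subunit genes, with 95% intervals from the edgeR fit; the dotted lines mark a log2 fold change of 1 in either direction, the size the study's criteria ask for. The intervals of ITGAV and ITGB1 do not contain 0, the other 7 do, and none reaches either dotted line.

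To compare levels between genes, the count of each transcript was divided by its annotated length, summed per gene and scaled to a sum of 1000000 per library. On this length-scaled level, ITGB1 was the highest member (773 ± 94.1 in the controls and 734 ± 61.0 after knockdown, SD, n = 3 each). ITGB5 was next (437 ± 22.7 and 406 ± 32.7), without overlap between the 2 genes in either group. These levels depend on the lengths used. With the length of the most abundant transcript, the means were 707 and 631 for ITGB1 and 188 and 180 for ITGB5. ITGA3 (161 ± 30.1 and 136 ± 4.93) was the highest of the 5 alpha members and ITGA5 (124 ± 3.73 and 130 ± 10.3) followed. Their ranges overlapped after knockdown and did not in the controls. ITGA1, an alpha subunit outside the members, was not compared on this level. ITGB4 (80.6 ± 12.9 and 69.9 ± 11.5) and ITGA6 (68.1 ± 3.8 and 69.8 ± 0.988), the subunits of α6β4, overlapped in both groups and their order turned when the length of the most abundant transcript was used. ITGAV (62.7 ± 2.03 and 54.5 ± 0.234) overlapped with ITGA6 in the controls and lay below it after knockdown. ITGA2 (41.9 ± 7.15 and 48.6 ± 3.82) and ITGB8 (4.53 ± 0.734 and 5.34 ± 0.159) came last before ITGB6, each without overlap with its neighbours.

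**Figure D3:**
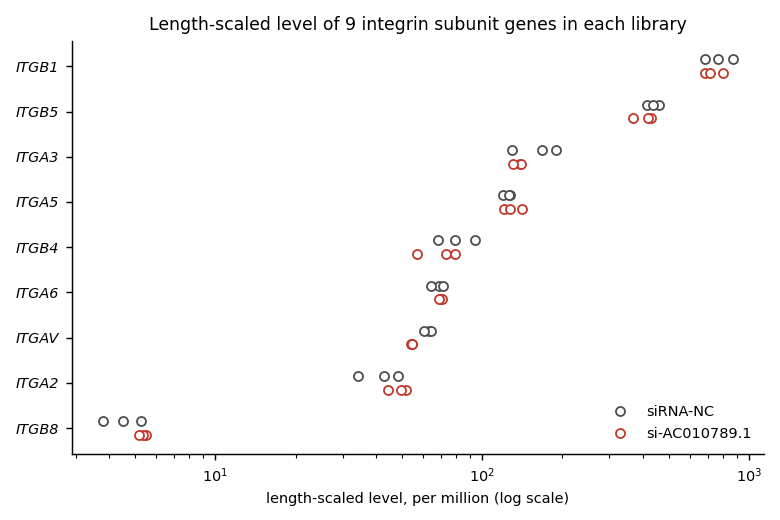
Length-scaled level, scaled to 1000000 per library, on a log axis, of 9 integrin subunit genes in each library, ordered from highest to lowest mean; ITGB6, with 0 in 2 libraries, is not drawn. ITGB1 lies between 683 and 871, ITGB8 between 3.8 and 5.50, and the libraries of ITGAV separate by group while those of ITGB1 do not.

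The 5 alpha subunits together had a length-scaled level of 462, 500 and 414 in the controls and 429, 458 and 430 after knockdown. The 5 beta subunits together had 1299, 1369 and 1219, then 1294, 1133 and 1219. Among these members the beta sum was above the alpha sum in every library, and ITGB1 was the largest part of it. Subunits outside the members, such as ITGA1, are in neither sum. The other 4 beta subunits summed to 522 ± 21.2 and 481 ± 30.0. With the length of the most abundant transcript, the mean of their sum over all libraries was 256. Neither the alpha nor the beta sum separated the groups. ITGB1, whose CPM separated the groups, overlapped between them on the length-scaled level (765, 871 and 683 against 803, 685 and 715). With the length of the most abundant transcript its means were 707 and 631, and overlap was not examined there. ITGAV was separate both in CPM and on the length-scaled level (63.5, 64.2 and 60.4 against 54.7, 54.3 and 54.7).

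Of the 97 transcripts, 44 were annotated as protein-coding, 31 as retained introns, 11 as targets of nonsense-mediated decay and 11 as processed transcripts, and 49 passed the filter. None was called by edgeR, where 0.0135% of 44319 transcripts were called, and DESeq2 called 0 as well. An unadjusted p under 0.05 was seen in 2 of 49 (5.73% of all transcripts), and 1 met the study's criteria (3.5% of all transcripts). The groups did not overlap in 5 of 49, or 10.2%, against 14% of all transcripts; 3 were lower after knockdown (7.1% of all transcripts) and 2 were higher (6.87%). Replicates of 1 group agreed much less over transcripts than over genes: the fitted spread between replicates, given as a biological coefficient of variation, was 0.698 for transcripts and 0.170 for genes, and in 36 of the 49 transcripts the highest library of a group had more than 2 times the lowest, which happened in 0 of the 9 genes.

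In ITGAV the counts lay almost wholly in ITGAV-201 and ITGAV-202, the pair that differs by 2 coding exons. ITGAV-202 had 2198, 1449 and 0 counts in the controls and 0 in all 3 knockdown libraries. It held 91.6% of the counts of the pair in control replicate 1, 50.9% in control replicate 2 and none in the other 4 libraries, so that control replicate 3 was like the knockdown libraries. ITGAV-201 had the mirrored values, 201, 1400 and 2832 counts in the controls and 2167, 2371 and 2269 after knockdown. The gene sum, by contrast, varied by 1.01-fold within the controls. ITGAV-202 was not tested since it had counts in 2 libraries, and ITGAV-201 had a log2 fold change of 0.73 with a standard error of 0.80 (adjusted p = 0.991), opposite in sign to that of the gene; it was 0.22 without siRNA-NC replicate 1 and 1.58 without siRNA-NC replicate 3.

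In ITGA6 the counts of the 2 tail forms lay apart between groups with opposite signs. The 2 forms held almost all counts of the gene, whose sum overlapped between groups, so these signs are tied to each other. ITGA6-201, which includes the α6A exon, had 654, 1301 and 654 counts in the controls and 130, 541 and 445 after knockdown. ITGA6-202, the most abundant transcript, lacks it and had 1179, 1015 and 1455 against 1835, 1401 and 1461 counts. On CPM neither transcript overlapped between groups, with α6A lower and α6B higher after knockdown, where 14% of all transcripts did not overlap. Grouped by stop codon, the α6A form took 35.4%, 55.4% and 30.9% of the counts of protein-coding transcripts with an annotated stop codon in the controls and 6.59%, 27.6% and 23.1% in the knockdown libraries, with means of 40.6 ± 13.0% and 19.1 ± 11.1% (SD, n = 3 each). The difference of -21.5 percentage points had an exact permutation p of 0.1, the smallest for 3 against 3, and 0.2 after adjustment over the 4 forms tested. Among these 4, the α6B form is the complement of α6A (21.5 percentage points) and adds no separate result. Single transcripts gave adjusted p-values (edgeR) of 0.905 for ITGA6-201 (log2 fold change -1.19, standard error 0.55) and 0.913 for ITGA6-202 (0.42, standard error 0.20), so neither was called. The exact test cannot fall under 0.05 with 3 against 3, so it cannot decide on a change of tail form.

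ITGA3 has the same choice of tail, and here the forms did not separate the groups. The α3A form, ITGA3-202, held 82.0%, 80.4% and 94.9% of the counts of protein-coding transcripts with an annotated stop codon in the controls and 81.6%, 87.1% and 94.5% after knockdown. The α3B form, ITGA3-201, held 18.0%, 13.9% and 4.93%, then 18.4%, 12.7% and 5.43%. Replicate 3 had the smallest α3B share in both groups, and the mean shares of 12.3 ± 6.69% and 12.2 ± 6.49% differed by -0.12 percentage points (exact permutation p = 1). The retained intron transcript ITGA3-208, the tested ITGA3 transcript with the lowest unadjusted p, had 979, 286 and 91 counts against 199, 187 and 93 (adjusted p = 0.940), and in control replicate 1 retained introns took 36.9% of the gene's counts.

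ITGB1 had 2 main transcripts, each with a non-coding exon that overlaps no exon of the other. Exon boundaries and coding sequences of the 2 were not compared. ITGB1-201, with its own 5′ exon of 65 bases at chr10:32958145-32958209, had 13085, 14270 and 13775 counts in the controls and 8118, 12550 and 9077 after knockdown. ITGB1-202, with an exon of 136 bases at chr10:32957759-32957894 in its place, had 630, 355 and 869 counts in the controls and 3110, 52 and 3454 after knockdown. It held 27.7% and 27.6% of the pair in knockdown replicates 1 and 3 and 0.413% in knockdown replicate 2, on either side of the controls (2.43% to 5.93%). ITGB1-201 was the tested transcript with the lowest unadjusted p among the 49, at 0.0256 (log2 fold change -0.43, standard error 0.14, adjusted p = 0.813).

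In ITGB4 the counts were exchanged among 4 transcripts, with wide differences between replicates of a group. ITGB4-206, the most abundant transcript, had 937, 559 and 509 counts in the controls and 447, 1377 and 965 after knockdown, and ITGB4-201, with the additional coding exon of 210 bases, had 206, 1413 and 716 against 438, 178 and 887. The share of ITGB4-201 in the pair ran from 18.0% to 71.7% within the controls and from 11.4% to 49.5% within the knockdown libraries. ITGB4-203, a protein-coding transcript outside that pair, had 482, 425 and 10 counts against 807, 456 and 33. It held 45.5% of the gene's counts in knockdown replicate 1. ITGB4-212, a processed transcript, had 969 counts in control replicate 3, 81 in control replicate 2, 88 in knockdown replicate 3 and 0 in the other 3 libraries, while the gene sum of control replicate 3 (172 CPM) lay between those of the other controls. ITGB4-212 was also the ITGB4 transcript with the lowest unadjusted p (adjusted p = 0.974).

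**Figure D4:**
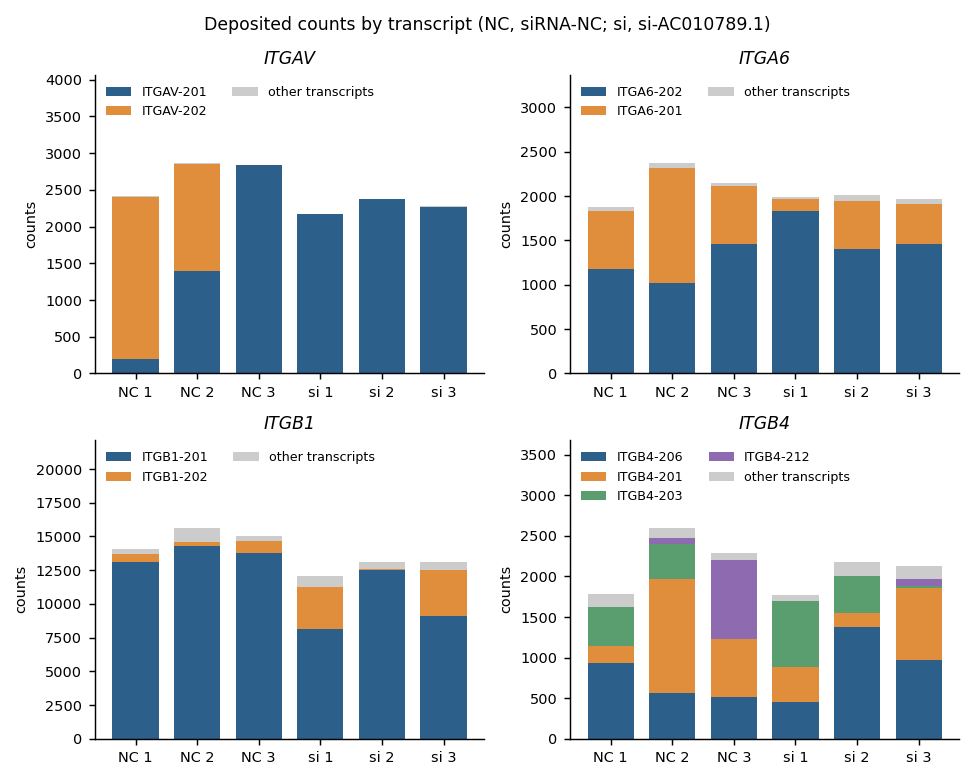
Deposited counts by transcript in each library for ITGAV, ITGA6, ITGB1 and ITGB4, stacked so that the full bar is the gene's count; NC and si are siRNA-NC and si-AC010789.1 replicates 1 to 3. ITGAV-202 appears in 2 control libraries alone, with 2198 and 1449 counts, and ITGB1-202 is large in knockdown replicates 1 and 3, with 3110 and 3454 counts.

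In ITGA5, ITGA2 and ITGB8 most counts lay in 1 transcript, and in ITGB5 they were spread over several. ITGA5-201 had 2387, 3269 and 3144 counts in the controls and 2438, 3131 and 2649 after knockdown (adjusted p = 0.994). ITGA5-206, a retained intron transcript of 582 bases, was the single member transcript at the study's criteria: it had 13, 9 and 20 counts in the controls and 30, 22 and 46 after knockdown, a log2 fold change of 1.26 with a standard error of 0.46, an unadjusted p of 0.0372 and an adjusted p of 0.841. All 3 knockdown libraries were above the controls, at counts that were a small part of the gene's total. ITGA2-201 carried the low value of control replicate 3, with 930 counts against 1830 and 2430 in the other controls and 1782, 2268 and 1998 after knockdown. In that library decay-targeted transcripts took 31.5% of the ITGA2 counts, where they took between 3.15% and 9.92% in the other 5. ITGB5-201 was even, with 1888, 2109 and 2060 against 1934, 1940 and 2042 counts. Between 68.8% and 79.4% of ITGB5 counts were in protein-coding transcripts, and ITGB5-206, a processed transcript, was its transcript with the lowest unadjusted p (27, 78 and 54 against 24, 35 and 22 counts, adjusted p = 0.913). ITGB8-201, with 249, 243 and 188 against 270, 284 and 261 counts, was the only ITGB8 transcript tested.

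Genes that act with the members were examined in 8 related lists, in the gene test described above. Over all 13750 tested genes, 17.2% had an unadjusted p under 0.05. DESeq2 called 5.06% of the 10278 genes to which it gave an adjusted p. These shares are the background for the counts that follow. DESeq2 called none of the other integrin subunits, the adhesion complex, the hemidesmosome or the trafficking genes. Neither tool called any of the 4 tested of 7 epithelial markers or a tested marker of other cells. CDH1 did not pass the filter and could not be called. It was at 0.709, 0.679 and 0.675 CPM in the controls and 0.873, 0.799 and 1.05 CPM after knockdown, without overlap, at no more than 13 counts. The study reports higher E-cadherin after knockdown by western blot and qRT-PCR. Of 16 other integrin subunits, 11 were in the table and 5 were tested, and edgeR called none and none had an unadjusted p under 0.05; 3 were higher and 2 lower, with a median log2 fold change of 0.02. ITGA1, the alpha subunit of a collagen receptor with β1, was at 302 ± 8.87 CPM in the controls and 307 ± 6.49 CPM after knockdown (adjusted p = 0.847). The lowest unadjusted p-values were those of ITGA2B (1.30 against 2.05 CPM, log2 fold change 0.65, adjusted p = 0.337) and ITGB2 (8.64 against 6.83 CPM, -0.34, adjusted p = 0.356), the subunits of platelet and leukocyte receptors, both at low levels. ITGB3, the other known partner of αV, was at about 1 CPM in both groups (0.997 and 0.990). Subunits of leukocyte receptors such as ITGA4, ITGAL and ITGAM had no row.

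On the cytoplasmic side, 0 of 13 tested activators and inhibitors of integrins were called by edgeR (4 at an unadjusted p under 0.05) and the median log2 fold change was 0.004. FERMT1, which encodes kindlin-1, an activator that binds the β tail, was at 26.9, 29.9 and 27.1 CPM in the controls and 20.4, 16.5 and 22.1 CPM after knockdown, without overlap (log2 fold change -0.50, standard error 0.12, adjusted p = 0.123); DESeq2 alone called it, at an adjusted p of 0.0433. DAB2, an adaptor for integrin endocytosis that stands in both this list and the trafficking list, had -0.22 (adjusted p = 0.144). In the adhesion complex 0 of 22 were called (6 at an unadjusted p under 0.05, median -0.06), led by DOCK1, an exchange factor for Rac (0.23, adjusted p = 0.153), and ARHGEF7, the exchange factor β-PIX (-0.17, adjusted p = 0.164). Among 13 trafficking genes 0 were called (4 at an unadjusted p under 0.05, median 0.002), and RAB11FIP1, a recycling endosome protein, was lowest in p (-0.32, adjusted p = 0.131).

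Hemidesmosome genes, which act with α6β4, gave 0 calls of 4 tested with 2 at an unadjusted p under 0.05 and a median of -0.06. DST, which encodes the plakin BPAG1, was at 437, 411 and 397 CPM against 370, 340 and 356 CPM (a log2 fold change of -0.22, adjusted p = 0.119). CD151, a tetraspanin that binds α3β1 and α6β4, had 90.7, 101 and 106 CPM against 118, 123 and 111 CPM (0.24, adjusted p = 0.189). These 2 genes were without overlap and opposite in sign. Plectin (PLEC), at 895 ± 85.0 and 823 ± 97.8 CPM, overlapped between groups.

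Of 34 genes for matrix ligands and their relatives 27 were tested and edgeR called 0, with 11 at an unadjusted p under 0.05 and a median of -0.01. LAMB2, the laminin β2 chain, was at 62.8, 54.6 and 55.1 CPM in the controls and 41.9, 45.9 and 41.9 CPM after knockdown (log2 fold change -0.41, adjusted p = 0.0881), while COL4A1, a collagen IV chain of basement membranes, was at 266, 306 and 280 against 329, 356 and 342 CPM (0.27, adjusted p = 0.112). Neither gene overlapped between groups, and they differed in sign. DESeq2 called 4 genes of this list, these 2 with COL4A5 (-0.29) and CYR61 (0.34), the last 2 named for that call. The latent TGF-β genes cover TGF-β and proteins that bind its latent form. Of these, 0 of 5 tested were called by edgeR, 3 had an unadjusted p under 0.05 and the median was -0.29. LTBP3, a latent TGF-β binding protein, was at 58.7, 64.6 and 65.2 CPM in the controls and 46.5, 49.8 and 46.7 CPM after knockdown (log2 fold change -0.40, standard error 0.07, adjusted p = 0.0658), and DESeq2 called this gene of the list alone, at 0.0039. LTBP1, another latent TGF-β binding protein, was the third and had the opposite sign, at 147, 154 and 134 CPM against 177, 166 and 161 CPM (0.21, adjusted p = 0.193). The summed level of the list was 350, 367 and 352 CPM in the controls and 390, 361 and 373 CPM after knockdown. LRRC32, which holds latent TGF-β at the cell surface, was near 2 CPM (2.11 against 1.21 CPM, adjusted p = 0.15).

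SDC1 was the one gene of all 8 lists that edgeR called. It encodes syndecan-1, a heparan sulfate proteoglycan that cooperates with αVβ3 and αVβ5, and it rose from 51.1, 56.1 and 54.6 CPM in the controls to 152, 112 and 152 CPM after knockdown. The log2 fold change was 1.36 with a standard error of 0.13 and an adjusted p of 0.0157, and adjusted p-values with 1 library left out ran from 0.00775 to 0.0716, under 0.05 only without si-AC010789.1 replicate 2. No other gene among the 13 membrane partners tested was called by edgeR or DESeq2. CD9, a tetraspanin, was the next lowest in p, at 239, 230 and 243 CPM against 216, 218 and 214 CPM (-0.14, adjusted p = 0.166), and 5 of the 13 had an unadjusted p under 0.05. The median log2 fold change of the list was 0.10.

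The genes whose levels over the 6 libraries lay closest to those of ITGAV, by distance of mean-centred log2 CPM, were OTUD4 (distance 0.0344), HNRNPA1P7 (0.0406) and EEF1A1P5 (0.0433). OTUD4, which encodes a deubiquitinase, was at 111, 116 and 112 CPM in the controls and 100, 101 and 97.2 CPM after knockdown. The other 2 are processed copies of HNRNPA1 and EEF1A1, and reads of the parent genes can be counted there, so their values are uncertain.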

How the data were processed

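The data are RNA sequencing libraries of transfected cells labelled HCT116, 3 with siRNA-NC and 3 with si-AC010789.1. The file deposited by the authors holds raw counts, one whole number for each Ensembl transcript in each library. The submitters' processing notes list CASAVA 1.8, TopHat2 2.0.6 and the builds GRCh38 and mm10. The study's methods name Cuffdiff for differential expression; the counting program, the annotation and the division of reads shared by transcripts are not given in the sources used here. Values of single transcripts depend on that division more than sums per gene do.

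Transcripts were matched to GENCODE v29 (GRCh38) by identifier, and counts were summed per gene; 104 of 98886 identifiers were not matched and stayed out of the gene sums. CPM are counts scaled to a library total of 1000000. Total counts ranged from 11277222 to 13443866, and a floor of 3 counts equalled 0.223 to 0.266 CPM; such floors cover counting error only. Genes and, separately, transcripts were tested with edgeR 4.0.16 (TMM factors, filterByExpr at minima of 10 counts and 15 in total, quasi-likelihood test; R 4.3.3), and p-values were adjusted after Benjamini-Hochberg over all features tested. A gene was called at an adjusted p under 0.05; the study's own criteria (unadjusted p under 0.05, absolute log2 fold change over 1) were applied beside it. Each CPM difference was also tested with a two-sided exact permutation test over the libraries, whose smallest p is 0.1 for 3 against 3. Scripts were tested on simulated data. DESeq2 1.42.0, other scaling factors, other filters, protein-coding transcripts alone, the replicate number as a block and leaving out each library were the alternatives. Other work used Python 3.11.15, pandas 2.3.3, numpy 2.4.6, scipy 1.17.1 and matplotlib 3.10.9.

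The rule for the members reads gene symbols alone, but these symbols and the related gene lists were chosen with earlier results of these data known. The text names every member, in each member the most abundant transcript and the tested transcript with the lowest unadjusted p, and in each related list every called gene and the 2 tested genes with the lowest unadjusted p. It also names the 3 genes with the smallest Euclidean distance in mean-centred log2 CPM (prior count of 2) to the member with the lowest unadjusted p. Shares of C-terminal forms are of the counts in a member's protein-coding transcripts with an annotated stop codon. Any other transcript or gene was named after its values were seen. The study reports that it verified the knockdown in the sequenced samples. The level of AC010789.1 was not analysed here, so the labels were not checked against the targeted RNA in these counts.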

Additional observations from a re-analysis of the deposited data

How the results depend on the processing

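ITGAV, ITGB1 and ITGA3 stayed lower in si-AC010789.1, and ITGB8 and ITGA2 higher, in all 13 alternatives. ITGA3 came as near to 0 as -0.052 and ITGA2 as near as 0.014. DESeq2 called 1 member, ITGAV (log2 fold change -0.19), and 1, 4 and 1 genes among the activators, the matrix ligands and the latent TGF-β genes. Near 0, signs turned: ITGA5 was 0.004 with upper-quartile factors, and with protein-coding transcripts alone ITGB5 was 0.0091 and ITGB4 0.15. Leaving out single libraries gave -0.082 to 0.023 for ITGA5, -0.077 to 0.0098 for ITGA6 and -0.14 to 0.016 for ITGB4. For transcripts it gave -0.13 to 0.0068 for ITGA5-201, -0.015 to 0.049 for ITGB5-201, -0.066 to 0.52 for ITGA2-201 and -0.28 to 0.13 for ITGA3-202. The number of member transcripts at the study's criteria was 5 without a filter, 3 with a mean of at least 1 CPM, and 0 to 3 with single libraries left out; ITGAV-202 was among them without siRNA-NC replicate 3, at an adjusted p of 0.263.

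The α3A share difference ran from -1.40 to 6.55 percentage points and the α3B difference from -3.79 to 3.24 with single libraries left out, and with counts per transcript length they were 7.27 and 1.06. With the lengths of the most abundant transcripts, 2 members changed rank. The cause was not tested. List medians with single libraries left out ran from -0.07 to 0.086 for activators, -0.086 to -0.041 for the adhesion complex, -0.18 to 0.063 for the hemidesmosome, -0.042 to 0.046 for matrix ligands, -0.38 to -0.14 for latent TGF-β (-0.094 without a filter), 0.024 to 0.14 for membrane partners, -0.014 to 0.032 for trafficking and -0.13 to 0.20 for epithelial markers. SDC1 made the count of membrane partners called 0 to 1 across these.

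The labels do not say that a replicate number marks a shared passage or day. Correlations of same-numbered deviations were 0.111, 0.0109 and 0.0164 for replicates 1, 2 and 3. Those of different-numbered ones ran from -0.0892 to 0.0791. Replicate 1 alone was above the limit of 0.1 set for pairing. The main fit did not pair the samples, and whether the numbers pair them is not settled. With the replicate number as a block, 0 of all genes were called against 135, membrane partners gave 0 calls although the log2 fold change of SDC1 was 1.35 against 1.36 (adjusted p = 0.126), ITGAV-201 was 1.27, 2 member transcripts met the study's criteria, and ITGAV had an adjusted p of 0.219 and ITGB1 of 0.248. Depth limits ITGB6, at or under 3 counts in every library. Groups of 3 limit the exact tests to 0.1.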
